A study of Mus musculus with 14 samples.

Results

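Adult mouse brains labelled wild type were sequenced in 2 sets of 2 libraries, and the sets are compared here with each other. They are 4 of the series' 14 libraries: adultWT1-1 and adultWT1-2 (set 1), and adultWT2-1 and adultWT2-2 (set 2). The labels give all 4 the same tissue (brain), stage (adult) and variation (wildtype), with no strain, age in days, sex, dissection or time of day, and they do not say whether each library is a different animal. The p-values below therefore rest on the spread between libraries, part or all of which may be technical. Adult brains of 2 knockouts are set beside them, and the fit takes its spread from all 14 libraries, which include brains of stage E19.5. Adult KO2 (n = 2) lacks the H19-DMR and the IG-DMR, which are differentially methylated control regions of imprinted genes. Adult KO3 (n = 2) lacks these and the Rasgrf1-DMR. The E19.5 groups (n = 2 each) are wild type, KO2 and KO7, the last with 7 other such regions deleted. Wild-type mice carry none of these deletions. Per the design text, haploid embryonic stem cells with these changes were used to make the knockout embryos. The labels do not say it, but the study is known to have made KO2 and KO3 mice from a pair of maternal genomes.

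A whole mouse brain joins regions whose cells express sharply different genes. In the cerebellum, the very numerous granule cells send parallel fibres to Purkinje cells, and Bergmann glia wrap the Purkinje cell dendrites. Purkinje cells are large inhibitory neurons and the only output of the cerebellar cortex. Striatal projection neurons respond to dopamine, the hypothalamus holds small groups of neuropeptide neurons, and the choroid plexus makes cerebrospinal fluid. Immediate early genes and clock genes change within minutes to hours, with neuronal activity and with time of day, so they also record how and when a brain was taken.

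Expression was measured as FPKM, fragments per transcript length scaled to the mapped fragments of each library, by sequencing poly(A) RNA. Genes above 0 in all 4 libraries with at least 1 FPKM in 2 or more were tested, which left 13081 of 23375 genes after names starting Mir, Snor or Scarna were set aside. Differences are set 2 minus set 1 in mean log2(FPKM + 1), with the standard error (SE) and the adjusted p of limma. This scale understates the change of genes near 0. FPKM values carry no read totals, so depth is unknown. Between 12869 and 13173 genes per library reached 1 FPKM. Low values were treated differently in the 2 sets before deposit. The set 2 libraries list 9291 and 9293 genes at 0, against 5113 and 4895 in set 1. Over set 2 and KO3 together, every gene with any value above 0 reached at least 1.02 FPKM in 1 of the 4 libraries, and 9994 genes were listed at 0 in all 4. Set 1 and KO2 hold values far below this. A gene listed at 0 in set 2 may therefore be a low value that was left out, and such genes are given as listed at 0. The columns of the 4 libraries of set 2 and KO3 also carry no unit, so FPKM is taken there from the rest of the table.

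The sets differed in many genes. Of the 13081 tested, 844 (6.45%) passed the threshold with a higher level in set 2 and 1150 (8.79%) with a lower level, together 15.2%. The higher genes were 42.3% of those that passed, and 53.4% after quantile scaling. The median difference over all tested genes was -0.03. Differences of at least 1 on the log2 scale were found among 121 of the higher and 237 of the lower genes, and of at least 2 among 18 each way. Pearson's r across tested genes was 0.988 between the libraries within each set and 0.956 to 0.960 between sets. The counts depend on how the spread is estimated. They fell to 258 higher and 291 lower when the fit held the 8 adult libraries alone, and they rose to 1126 and 1592 with the 4 wild-type libraries alone. Leaving out any 1 of the 4 gave 175 to 333 higher and 146 to 601 lower, with the fewest both ways when set 1 replicate 1 was left out. Leaving out either KO3 library raised them to 1753 or 1759 higher and 2190 or 2191 lower. Among the named genes, 36 passed with each of the 4 libraries left out in turn: 2010003O02Rik, 2610019E17Rik, Arhgef33, Calb1, Car8, Cbln1, Cbln3, Cdr1, Cox5b, Crtam, Csf1r, Dao, Dusp5, Fat2, Gdf10, Homer3, Il16, Mvd, Ndufa1, Neurod1, Nr1d2, Opalin, Ppp1r17, Rgs9, Rpl36, Rpl37, Rpl39, Rps21, Rps29, Serf1, Slc1a6, Snhg6, Tyrobp, Uqcr10, Zic1 and Zic2. The other 83 calls on named genes were lost without at least 1 of the 4: 75 without set 1 replicate 1, 61 without set 1 replicate 2, 65 without set 2 replicate 1 and 53 without set 2 replicate 2. Some of the 36, Cbln3, Crtam, Dao, Fat2 and Ppp1r17 among them, met the filter through set 2 alone, so that they were bound to differ. The libraries match their labels on the genes that mark brain. The neuronal gene Rbfox3 had 90.4 and 72.4 FPKM in set 1 and 84.4 and 79.7 FPKM in set 2, and Snap25, of the synaptic release machinery, had 973 and 785 FPKM in set 1 and 1015 and 1043 FPKM in set 2. Xist, which is expressed from the inactive X chromosome, was between 45.7 and 72.6 FPKM in the 4, and the Y-linked genes Ddx3y, Eif2s3y and Kdm5d were listed at 0 in all 4.

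The clearest difference was cerebellar. RNAs particular to granule cells were at or near 0 in set 1 and readily measured in set 2. Gabra6, a GABA-A receptor subunit almost particular to these cells, had 0 FPKM in both set 1 libraries and 42.9 and 59.1 FPKM in set 2. The 0 in set 1 kept it out of the main test, and it passed when zeros were kept (log2 difference 5.68, adjusted p = 2.7e-08). Cbln3, a secreted partner of cerebellin 1, had 0.0359 and 0.0432 FPKM in set 1 and 31.7 and 38.3 FPKM in set 2 (log2 difference 5.11 ± 0.17 SE, adjusted p = 9.5e-09). Fat2, a giant cadherin of parallel fibres, had 0.0534 and 0.0505 FPKM in set 1 and 12.6 and 14.6 FPKM in set 2 (log2 difference 3.79 ± 0.19 SE, adjusted p = 7.4e-07). The transcription factor gene Neurod1 had 3.49 and 2.43 FPKM in set 1 and 38.8 and 45.9 FPKM in set 2 (log2 difference 3.46 ± 0.25 SE, adjusted p = 2.1e-05). In each of these 4 genes both set 2 libraries lay above both set 1 libraries, with no overlap. Gabra6, Cbln3 and Fat2 reached 1 FPKM in set 2 alone, so that they were bound to differ without overlap. In bulk tissue, more cells of a type and more RNA per cell cannot be told apart. Cbln1, whose product bridges parallel fibres and Purkinje cells, had 7.76 and 16.3 FPKM in set 1 and 69.9 and 79.99 FPKM in set 2 (log2 difference 2.62 ± 0.26 SE, adjusted p = 2.1e-04). The zinc-finger genes Zic1 and Zic2 both had a difference of 1.65, and Zic1 already had 13 and 22.5 FPKM in set 1. Both are also expressed outside the cerebellum.

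Of the 14 granule cell genes listed, 13 could be tested, and 10 were higher in set 2 with none lower, against 6.45% of all genes. The members' median difference was 1.65. Members that reach 1 FPKM only in set 2 were bound to differ, and among the 8 with 1 FPKM in both sets 6 passed. The libraries of the 2 sets did not overlap for any of the 13, all with set 2 above, which held for 30.9% of all genes. The members outside the 8 could not overlap because of the filter, so only the 8 were free to. Besides those above, Pax6 (1.09), the cadherin gene Cdh15 (1.07), Mab21l1 (1.92) and En2 (2.66) passed. Those that did not pass were Grin2c, an NMDA receptor subunit gene, with 20.7 and 20.8 FPKM in set 1 and 21.2 and 21.8 FPKM in set 2, Zic4 (0.29, adjusted p = 0.24) and Barhl1 (0.79, adjusted p = 0.29). Without set 1 replicate 1 the count was 6, and without any other single library it was 7 to 10.

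Purkinje cell genes showed the same division. Pcp2, a Purkinje cell protein, had 0 and 0.535 FPKM in set 1 and 162 and 155 FPKM in set 2, and with zeros kept its difference was 7.01 (adjusted p = 2.2e-04). Car8, whose product binds the inositol trisphosphate receptor, had 3.07 and 2.66 FPKM in set 1 and 33 and 24.4 FPKM in set 2 (log2 difference 2.93 ± 0.22 SE, adjusted p = 2.1e-05). Ppp1r17, a phosphatase inhibitor, had 0.139 and 0.96 FPKM in set 1 and 19.47 and 16.5 FPKM in set 2 (log2 difference 3.66 ± 0.27 SE, adjusted p = 2.2e-05). In all 3 the lowest set 2 value lay far above the highest set 1 value. Pcp2 and Ppp1r17 reached 1 FPKM in set 2 alone, so for them the filter fixed the direction. The calcium buffer gene Calb1, which other neurons also express, started from a higher base, 35.6 and 34.8 FPKM in set 1 and 78.1 and 80.6 FPKM in set 2 (log2 difference 1.15 ± 0.16 SE, adjusted p = 0.0016). Of 14 genes listed, 12 were tested and 10 were higher in set 2, against 6.45% of all genes, with a median of 1.36. Of the 10 members with 1 FPKM in both sets, 8 passed. The other tested members, Ppp1r17 among them, met the filter through set 2 alone, so that they were bound to differ. The glutamate transporter gene Slc1a6 (1.53), the scaffold gene Homer3 (1.70), Rgs8 (1.19) and Lhx1 (1.85) were among those that passed. Itpr1, the receptor itself, missed the threshold with 99.1 and 66.7 FPKM in set 1 and 133 and 119 FPKM in set 2 (adjusted p = 0.087), and so did Lhx5 (difference 0.65, adjusted p = 0.197). Skor2 could not be tested, since it was listed at 0 in 3 of the 4 libraries. Without set 1 replicate 1 the count fell from 10 to 6.

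The glial layer of the cerebellum differed in part. Gdf10, a growth factor gene of Bergmann glia, had 2.64 and 2.93 FPKM in set 1 and 14.1 and 13.6 FPKM in set 2 (log2 difference 1.97 ± 0.14 SE, adjusted p = 1.6e-05). A2m, a protease inhibitor gene, had 1.14 and 2.19 FPKM in set 1 and 4.65 and 5.29 FPKM in set 2 (log2 difference 1.19 ± 0.25 SE, adjusted p = 0.012), and 1 of the 3 members passed, instead of 2, when set 1 replicate 1 or set 2 replicate 2 was left out. Hopx, which hippocampal and other astroglia also express, did not differ beyond the spread, with 23.4 and 20.6 FPKM in set 1 and 23.4 and 21.8 FPKM in set 2.

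**Figure D1:**
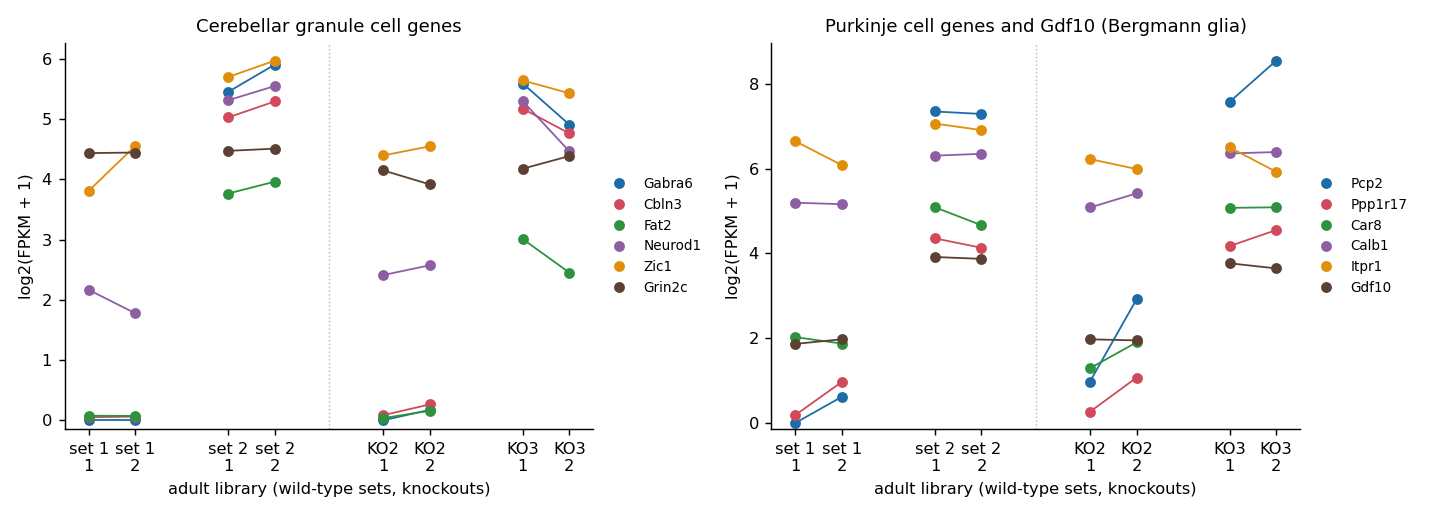
Level of cerebellar genes as log2(FPKM + 1) in the 8 adult libraries, with each point a library and lines joining the 2 libraries of a group. Gabra6, Cbln3, Fat2 and Pcp2 sit at or near 0 in set 1 and between 3.5 and 8 in set 2, KO3 lies near set 2 and KO2 near set 1 except for Pcp2 in replicate 2 (6.54 FPKM), while Grin2c and Itpr1 are high in all.

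The knockout libraries divided the same way. Gabra6 had 0 and 0.127 FPKM in KO2 and 47.3 and 29.1 FPKM in KO3, Cbln3 had 0.0608 and 0.1999 FPKM in KO2 and 35.1 and 26.2 FPKM in KO3, and Fat2 had 0.0247 and 0.116 FPKM in KO2 and 7.05 and 4.48 FPKM in KO3. Pcp2 had 0.967 and 6.54 FPKM in KO2 and 189 and 372 FPKM in KO3. For KO3 minus KO2, 8 of the 13 granule cell genes and 7 of the 12 Purkinje cell genes were higher, against 7.40% of all genes, with medians of 1.23 and 1.08. Car8 differed by 3.49 there and by 2.93 between the wild-type sets. Neurod1 differed by 2.39 and 3.46. The 2 knockouts differ in genotype as well, and which libraries share handling cannot be read from the labels.

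Several of the largest rises outside the lists had the same profile over the 8 adult libraries. Cdr1 had 55.6 and 52.4 FPKM in set 1 and 558 and 268 FPKM in set 2 (log2 difference 2.82 ± 0.25 SE, adjusted p = 7.6e-05). Its locus also gives an antisense RNA, and whether the values separate the strands is not given in the sources used here. Dao, the D-amino acid oxidase of cerebellar and hindbrain glia, had 0.0764 and 0.23 FPKM in set 1 and 5.41 and 5.45 FPKM in set 2 (log2 difference 2.48 ± 0.16 SE, adjusted p = 8.1e-06) and 0.354 and 0.69 FPKM in KO2 and 5.44 and 6.33 FPKM in KO3. Crtam, known as an adhesion molecule of activated T cells, had 0.0326 and 0.0293 FPKM in set 1 and 5.18 and 5.19 FPKM in set 2 (log2 difference 2.58 ± 0.23 SE, adjusted p = 7.8e-05) and 0 and 0.102 FPKM in KO2 and 6.25 and 12.6 FPKM in KO3. The cytokine gene Il16 (2.36) and the exchange factor gene Arhgef33 (2.21) were also higher. All 5 also passed as higher in KO3 than in KO2. Dao and Crtam met the filter through set 2 alone, so that they were bound to differ between the sets. Over the alternative settings the difference of Il16 ranged from 0.71 to 3.36 and that of Arhgef33 from 0.58 to 3.46. Whether Il16 and Arhgef33 reached 1 FPKM in set 1 is not reported here. Eif3j1 was 0.00113 and 2.1e-04 FPKM in set 1 and 19.9 and 13.6 in set 2 (difference 4.12), but it has a near-identical copy, Eif3j2, and the split of fragments between them is uncertain. Eif3j1 too met the filter through set 2 alone.

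The striatum went the other way. All 18 striatal genes were lower in set 2, with no overlap between the sets in any of them (33.8% of all genes had set 2 below set 1 with no overlap), and 6 passed the threshold, against 8.79% of all genes. Their median was -0.80. Adora2a, the adenosine receptor of the indirect pathway, had 32.9 and 33.1 FPKM in set 1 and 10.7 and 12.3 FPKM in set 2 (log2 difference -1.44 ± 0.33 SE, adjusted p = 0.015). Rgs9, which shortens dopamine receptor signals, had 45.7 and 50.6 FPKM in set 1 and 19.4 and 18 FPKM in set 2 (log2 difference -1.32 ± 0.22 SE, adjusted p = 0.0043). The adenylyl cyclase gene Adcy5 had 109.7 and 115 FPKM in set 1 and 50.1 and 48.7 FPKM in set 2 (log2 difference -1.17 ± 0.22 SE, adjusted p = 0.0073), and Rasd2 and Syndig1l each differed by -0.77. The G protein gene Gng7 had 94.3 and 95.2 FPKM in set 1 and 50.4 and 43.6 FPKM in set 2 (adjusted p = 0.029). The dopamine receptor genes did not pass. Drd2 had 30.1 and 30.8 FPKM in set 1 and 17.1 and 16.6 FPKM in set 2 (adjusted p = 0.11), and Drd1a had 11.7 and 12.8 FPKM in set 1 and 8.78 and 9.06 FPKM in set 2 (adjusted p = 0.34). Nor did the signalling gene Ppp1r1b, with 226 FPKM in both set 1 libraries and 119 and 133 FPKM in set 2 (adjusted p = 0.17), or the enkephalin gene Penk (adjusted p = 0.14). In the knockouts Adora2a had 7.73 and 15.3 FPKM in KO2 and 10.6 and 8.81 FPKM in KO3, with all 4 libraries below wild-type set 1. With the 4 wild-type libraries alone 16 of 18 passed, with the 8 adult libraries 3, and with any 1 wild-type library left out 1 or 2.

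The cerebral cortex showed no common direction, with a median of -0.04 over 14 genes. In each direction 1 gene passed, against 6.45% higher and 8.79% lower over all genes. Only Bhlhe22, a transcription factor gene also used outside the cortex, was higher (7.87 and 6.43 FPKM in set 1 and 11.2 and 12.9 FPKM in set 2, log2 difference 0.68 ± 0.16 SE, adjusted p = 0.0196), and only Emx1 was lower (13.4 and 8.2 FPKM in set 1 and 5.08 and 5.85 FPKM in set 2, log2 difference -0.83 ± 0.22 SE, adjusted p = 0.025). Set 1 was itself uneven. Neurod6 had 17.1 FPKM in set 1 replicate 1 and 8.16 in replicate 2, and Tbr1 had 28.9 and 15.5, whereas set 2 had 23.1 and 18.5 for Tbr1. Of 6 hippocampal genes tested, 1 was lower, against 8.79% of all genes: Wfs1, which marks the CA1 field (46.2 and 45.9 FPKM in set 1 and 34.6 and 35.1 FPKM in set 2, adjusted p = 0.049). The dentate gene Prox1, also found in other regions, had 2.65 and 4.68 FPKM in set 1 and 6.5 and 7.02 FPKM in set 2 (adjusted p = 0.0905).

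Several thalamic and hypothalamic genes had their highest wild-type level in set 1 replicate 2. The thalamic kinase gene Prkcd had 14.5 FPKM in set 1 replicate 1 and 52 in replicate 2, with 24.8 and 21.5 in set 2 between them. Tcf7l2 had 8.98 and 19.8 FPKM in set 1 and 12.2 and 10.8 FPKM in set 2. None of the 10 thalamic genes passed between the sets by limma, and 1, Gbx2, had an unadjusted p under 0.05. Without set 1 replicate 1, 2 passed as lower. In the hypothalamus the peptide gene Pomc had 3.82 and 18.2 FPKM in set 1 and 1.19 and 1.7 FPKM in set 2 (log2 difference -1.99 ± 0.56 SE, adjusted p = 0.034). Kiss1, the kisspeptin gene, had 2.12 and 1.5 FPKM in set 1 and 0.162 and 0.655 FPKM in set 2 (log2 difference -1.01 ± 0.20 SE, adjusted p = 0.0077). These were the 2 of 11 tested that passed, both lower in set 2. All 11 had a negative difference, with a median of -0.97. In 6 of them set 2 lay below set 1 with no overlap, against 33.8% of all genes. The 6 include members, Kiss1 among them, that met the filter through set 1 alone and so could not overlap. Of the 9 with 1 FPKM in both sets 1 passed, against 8.79% of all genes. The orexin gene Hcrt had 11.8 and 50.5 FPKM in set 1 and 9.31 and 16.1 FPKM in set 2, Pmch (melanin-concentrating hormone) had 10.1 and 62.9 FPKM in set 1 and 13.6 and 18.1 FPKM in set 2, and oxytocin, Oxt, had 116 and 198 FPKM in set 1 and 27.3 and 49.4 FPKM in set 2. None of these 3 passed. The other 8 hypothalamic genes listed could not be tested, and 7 of them, Otp among them (0.935 and 3.44 FPKM in set 1), were listed at 0 in both set 2 libraries. With any 1 wild-type library left out, none or 1 hypothalamic gene passed. The adult KO2 libraries also differed from each other, since replicate 1 had 0.559 FPKM of Oxt and 0.791 of Hcrt against 202 and 47.3 in replicate 2.

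Several pituitary and habenular RNAs were seen in set 1 and listed at 0 in set 2. Growth hormone, Gh, had 6.95 and 10.6 FPKM and prolactin, Prl, 11 and 20.4 FPKM in set 1. Both were also present in KO2 (0.672 and 5.07 FPKM of Gh, 2.13 and 8.48 of Prl) and listed at 0 in KO3. The habenular receptor gene Gpr151 had 1.45 and 2.7 FPKM in set 1, and Chrna3 0.656 and 2.16. Gh and Prl in set 1 lay well above 1.02 FPKM, the lowest maximum seen in set 2 and KO3. The habenular levels lay near it, so that absence and a low value left out cannot be told apart for them. Of 9 pituitary genes listed, 8 were at 0 in each set 2 library, and 2 and 1 in those of set 1. Tshb alone could be tested, with 1.05 and 2.51 FPKM in set 1 and 1.5 and 2.13 FPKM in set 2 (adjusted p = 0.903), and all 4 habenular genes were listed at 0 in set 2. With zeros kept, 168 genes enter the test, of which 152 are called lower in set 2 and 3 higher, so a call of lower on such a gene says little, and none is given for these.

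**Figure D2:**
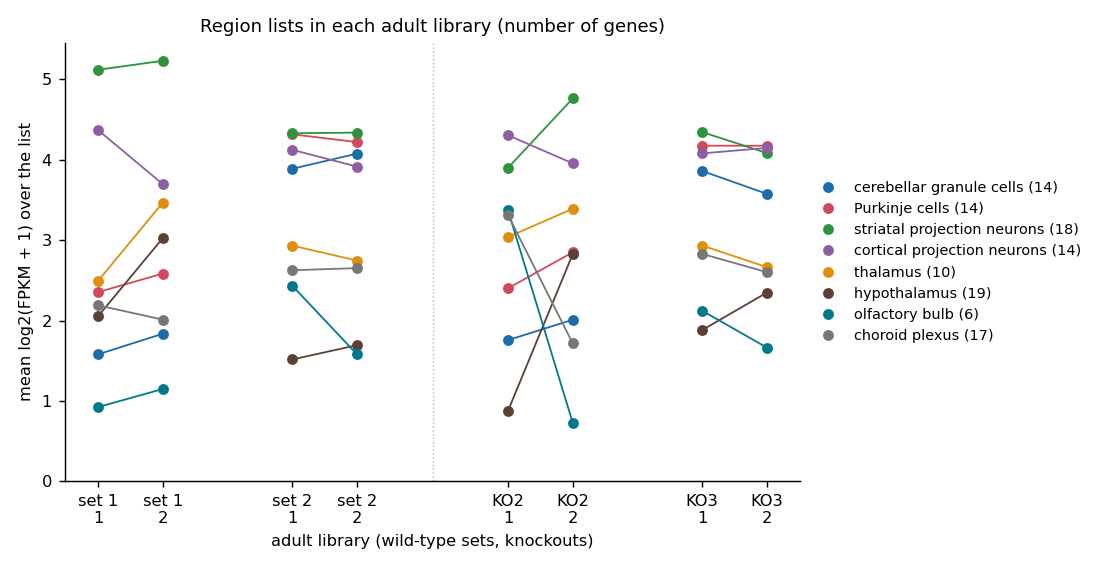
Mean log2(FPKM + 1) over all genes of each region list in the 8 adult libraries, zeros included; each point is a library and lines join the 2 of a group. The granule cell list is at 1.58 and 1.84 in set 1 and 3.89 and 4.08 in set 2, the striatal list at 5.12 and 5.23 against 4.33 and 4.34, and the thalamic and hypothalamic lists are at 2.49 and 2.05 in set 1 replicate 1 against 3.47 and 3.03 in replicate 2.

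Among genes of the hindbrain and the olfactory bulb 3 were higher in set 2, and 2 of these met the filter only there. The glycine transporter gene Slc6a5 had 0.0565 and 0.0812 FPKM in set 1 and 7.39 and 2.21 FPKM in set 2 (log2 difference 2.28 ± 0.51 SE, adjusted p = 0.014), and the glycine receptor gene Glra1 had 1.35 and 3.65 FPKM in set 1 and 15.6 and 5.72 FPKM in set 2 (log2 difference 1.68 ± 0.45 SE, adjusted p = 0.0301). Of the 15 hindbrain genes listed only these 2 could be tested, and Slc6a5 met the filter through set 2 alone, so that it was bound to differ. Hoxa5 and Hoxb5 were seen in set 2 replicate 1 alone of the 4, at 1.01 and 1.46 FPKM, and in both KO3 libraries (2.27 and 4.1 FPKM of Hoxb5). The serotonin synthesis gene Tph2 had 0.41 and 0.334 FPKM in set 1 and 3.23 and 2.94 FPKM in set 2 but did not pass (adjusted p = 0.13). The dopamine transporter gene Slc6a3 was uneven within set 1, at 1.002 and 6.37 FPKM. None of the 5 monoamine genes tested passed by limma, with 1 at an unadjusted p under 0.05. Of the 6 cholinergic genes none passed by limma or had an unadjusted p under 0.05, and Chat, the acetylcholine synthesis gene, had 1.99 and 2.92 FPKM in set 1 and 2.22 and 1.24 FPKM in set 2. Of 4 olfactory bulb genes tested, Eomes, of mitral and tufted cells and also of cerebellar unipolar brush cells, was higher (0.195 and 0.48 FPKM in set 1 and 5.89 and 3.96 FPKM in set 2, log2 difference 2.14 ± 0.53 SE, adjusted p = 0.022). Doc2g had 4.84 and 5.8 FPKM in set 1 and 15.4 and 5.9 FPKM in set 2 (adjusted p = 0.55), and its highest adult value was 46 FPKM in KO2 replicate 1. Eomes too met the filter through set 2 alone, and neither of the 2 olfactory genes at 1 FPKM in both sets passed. Its call was lost when any 1 of the 4 libraries was left out.

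Choroid plexus genes lay mostly higher in set 2 without passing. Of the ependymal genes tested 2 of 7 were lower, and of the meningeal genes 3 of 14, against 8.79% of all genes. Transthyretin, Ttr, the main secreted protein of the choroid plexus, had 331 and 159 FPKM in set 1 and 538 and 493 FPKM in set 2 (adjusted p = 0.297). None of the 17 choroid plexus genes passed by limma, and 1 had an unadjusted p under 0.05 (Kcnj13, 2.64 and 2.04 FPKM in set 1 and 7.11 and 7.02 FPKM in set 2), although set 2 lay above set 1 with no overlap in 15 of them, against 30.9% of all genes. Of the 17, 13 reached 1 FPKM in both sets, and the others met the filter through set 2 alone and could not overlap. With the 4 wild-type libraries alone 5 passed. In KO2, Ttr had 1135 and 114 FPKM. The cilia genes Dynlrb2 and Rsph1 of the ependyma were lower in set 2 (6.82 and 9.42 FPKM in set 1 and 2.74 and 2.63 FPKM in set 2 for Dynlrb2, adjusted p = 0.015). Collagen I genes of the meninges were lower, with Col1a1 at 16.3 and 5.59 FPKM in set 1 and 1.46 and 2.93 FPKM in set 2 (log2 difference -1.78 ± 0.35 SE, adjusted p = 0.0079) and Col1a2 and the transporter gene Slc6a13 lower with differences of -0.78 and -0.71. The meningeal gene Dcn did not pass (difference 0.49, adjusted p = 0.088). The meningeal list was split, with 6 of 14 differences positive, 8 negative and a median of -0.07. Without set 1 replicate 1 or set 2 replicate 1 none of the 3 meningeal genes passed, and neither cilia gene passed when a library other than set 1 replicate 1 was left out. Skeletal muscle actin, Acta1, was lower as well (10.7 and 9.28 FPKM in set 1 and 3.33 and 2.41 FPKM in set 2, adjusted p = 0.02001), with the muscle genes Ckm and Myh2 at most 0.269 and 0.261 FPKM. Haemoglobin alpha, Hba-a1, which reports blood left in the tissue, had 21.7 and 233 FPKM in set 1 and 104 and 57.5 FPKM in set 2, and the neutrophil gene S100a8 had 47.7 and 11.8 FPKM in set 1 and 4.8 and 7.48 FPKM in set 2. Neither passed (adjusted p = 0.94 and 0.32).

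Genes shared by most neurons differed little between the sets. The synaptic vesicle genes Syt1 and Syp had 203 and 162 FPKM in set 1 and 273 and 241 FPKM in set 2 for Syt1 and 434 and 426 FPKM in set 1 and 388 and 389 FPKM in set 2 for Syp, and the neuronal surface gene Thy1 had 391 and 334 FPKM in set 1 and 279.6 and 256 FPKM in set 2. Of 15 tested, 1 passed: Nefh, the heavy neurofilament of large projection axons, which Purkinje and hindbrain neurons also express (13.9 and 20.3 FPKM in set 1 and 48.9 and 33.6 FPKM in set 2, log2 difference 1.22 ± 0.28 SE, adjusted p = 0.015). That is a share near the 6.45% of all genes that were higher, and the list's median was -0.03. Of 15 inhibitory neuron genes 3 were higher and 1 was lower, against 6.45% and 8.79% of all genes, with a median of -0.27. Parvalbumin, Pvalb, had 53.3 and 50.2 FPKM in set 1 and 142 and 168 FPKM in set 2 (log2 difference 1.56 ± 0.34 SE, adjusted p = 0.013) and 62.5 and 88.1 FPKM in KO2 and 248 and 475 FPKM in KO3. Pvalb, the GABA synthesis gene Gad1 (0.56, adjusted p = 0.045) and Reln (0.84, adjusted p = 0.044) are all expressed by cerebellar neurons too: Purkinje cells for Pvalb and Gad1, granule cells for Reln. The peptide gene Npy was lower (314 and 198 FPKM in set 1 and 105 and 112 FPKM in set 2, log2 difference -1.19 ± 0.34 SE, adjusted p = 0.037), and Sst, of forebrain interneurons, had 459 and 334 FPKM in set 1 and 207 and 231 FPKM in set 2 without passing (adjusted p = 0.088).

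Microglial genes were lower in set 2. All 16 had a negative difference, 11 passed, against 8.79% of all genes, and their median was -0.77. The receptor gene Csf1r, on which microglia depend, had 41.3 and 34 FPKM in set 1 and 19.4 and 16.2 FPKM in set 2 (log2 difference -1.04 ± 0.15 SE, adjusted p = 0.00197), and the adaptor gene Tyrobp had 47.1 and 36.2 FPKM in set 1 and 16 and 16.4 FPKM in set 2 (log2 difference -1.30 ± 0.18 SE, adjusted p = 0.0016). The chemokine receptor gene Cx3cr1 had 19.7 and 15.6 FPKM in set 1 and 11 and 8.54 FPKM in set 2 (log2 difference -0.80 ± 0.22 SE, adjusted p = 0.033). The complement gene C1qb (-0.80, adjusted p = 0.027) and the lysosomal gene Ctss (-0.69, adjusted p = 0.023) had negative differences too. P2ry12 (-0.65, adjusted p = 0.079) and Tmem119 (-0.50, adjusted p = 0.11), which resident microglia express, did not pass. KO3 was lower than KO2 in 4 of the 16, Csf1r among them (30.1 and 33.1 FPKM in KO2 and 18.2 and 13.8 FPKM in KO3), against 11.1% of all genes. The count was 2 with the 8 adult libraries alone, and 2, 4, 9 and 2 without set 1 replicate 1, set 1 replicate 2, set 2 replicate 1 and set 2 replicate 2.

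Genes of oligodendrocyte precursors were also lower, 5 of 12 against 8.79% of all genes, with a median of -0.53. The proteoglycan gene Cspg4 had 5.11 and 4.99 FPKM in set 1 and 3.1 and 2.46 FPKM in set 2 (log2 difference -0.68 ± 0.14 SE, adjusted p = 0.011), and Gpr17, of cells about to myelinate, had 17.9 and 19.4 FPKM in set 1 and 7.27 and 5.97 FPKM in set 2 (log2 difference -1.37 ± 0.36 SE, adjusted p = 0.027). The lineage factors Olig1 and Olig2 differed by -0.71 and -0.76, and Neu4 by -0.71. Pdgfra, the growth factor receptor that defines these cells, missed the threshold (13.1 FPKM in both set 1 libraries and 9.14 and 7.84 FPKM in set 2, adjusted p = 0.0802). With any 1 of the 4 libraries left out, none or 1 of the 5 passed. Among 16 myelin genes 2 were lower, a share near the 8.79% of all genes. Opalin, a membrane protein of mature oligodendrocytes, was among the largest falls of all genes, with 33.4 and 41.9 FPKM in set 1 and 8.07 and 7.44 FPKM in set 2 (log2 difference -2.14 ± 0.24 SE, adjusted p = 5.2e-04), and the tight junction gene Cldn11 differed by -0.99 (adjusted p = 0.013). Mbp, which codes for a main myelin protein, had 1542 and 1972 FPKM in set 1 and 1404 and 1042 FPKM in set 2 and did not pass (adjusted p = 0.26).

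Few astrocyte and vessel genes passed. Over all genes 6.45% were higher and 8.79% lower. Aldh1l1 (31.1 and 31 FPKM in set 1 and 20.7 and 18.3 FPKM in set 2, log2 difference -0.65 ± 0.15 SE, adjusted p = 0.018) and Mlc1 (87 and 90.7 FPKM in set 1 and 59.9 and 57 FPKM in set 2, log2 difference -0.60 ± 0.16 SE, adjusted p = 0.026) were the 2 of 15 astrocyte genes that passed, both lower in set 2. The water channel gene Aqp4 had 27.3 and 35.2 FPKM in set 1 and 35.3 and 33.7 FPKM in set 2, and Gfap had 60.2 and 104 FPKM in set 1 and 64.3 and 59.8 FPKM in set 2. Neither passed. None of 15 endothelial genes passed by limma, with 2 at an unadjusted p under 0.05. Pecam1 had 5.12 and 5.58 FPKM in set 1 and 6.19 and 6.12 FPKM in set 2, and Cldn5 had 33.5 and 30.8 FPKM in set 1 and 17.9 and 20.4 FPKM in set 2 (adjusted p = 0.081). Of 11 mural cell genes the contractile gene Tagln was lower (-0.77, adjusted p = 0.0403). The proliferation genes Mki67 and Top2a were at most 0.532 and 1.04 FPKM in set 1 and listed at 0 in set 2. The neuroblast gene Sox11 was lower (-0.44, adjusted p = 0.044), and Dcx did not pass (adjusted p = 0.53).

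**Figure D3:**
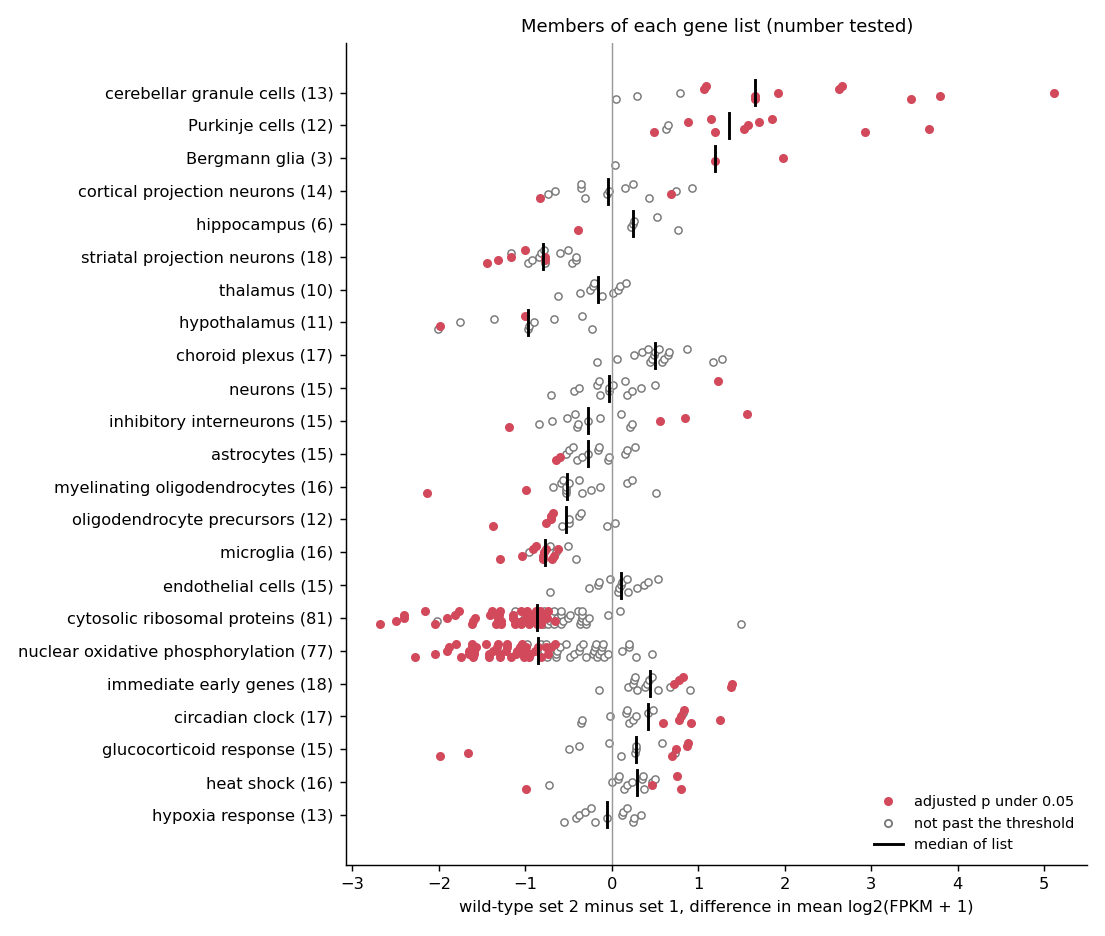
Difference between the sets (set 2 minus set 1, log2(FPKM + 1)) for each tested member of 23 gene lists; filled points passed the threshold, open points did not, and bars mark the medians. The granule and Purkinje cell medians lie at 1.65 and 1.36 and the hypothalamic median, the lowest, at -0.97. The striatal, microglial, ribosomal and oxidative phosphorylation medians lie between -0.86 and -0.77, and the neuronal and endothelial medians near 0.

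By number of genes, the largest falls among the lists were in housekeeping machinery. Of 81 cytosolic ribosomal protein genes tested, 46 were lower in set 2, against 8.79% of all genes, and none higher, with a median of -0.86. The sum over these genes was 11.2% and 11.1% of the FPKM of all tested genes in set 1 and 5.41% and 6.4% in set 2. Rps29 had 1264 and 1465 FPKM in set 1 and 172 and 337 FPKM in set 2 (log2 difference -2.49 ± 0.33 SE, adjusted p = 0.0014). Rpl39 had 905 and 1058 FPKM in set 1 and 139 and 164 FPKM in set 2 (log2 difference -2.68 ± 0.45 SE, adjusted p = 0.0045). Rpl41, which codes for the shortest ribosomal protein, had 3859 and 3436 FPKM in set 1 and 650.3 and 1011 FPKM in set 2 (log2 difference -2.17 ± 0.39 SE, adjusted p = 0.0058), and Rps21 (-2.41), Rpl36 (-2.40) and Rpl37 (-2.04) were close to these. Rps6 had a difference of 0.10 and Rpl5 of -0.26, and neither passed. Rpl34 had a positive difference (1.49, adjusted p = 0.31). Ribosomal protein genes have many processed pseudogenes, so the share of fragments given to each member is uncertain.

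The nuclear genes of oxidative phosphorylation behaved alike, with 43 of 77 lower, against 8.79% of all genes, none higher and a median of -0.85. Their share of the FPKM of tested genes was 6.25% and 6.04% in set 1 and 3.3% and 3.92% in set 2. Ndufa1, a complex I subunit, had 251 and 203 FPKM in set 1 and 34.1 and 61.8 FPKM in set 2 (log2 difference -2.27 ± 0.26 SE, adjusted p = 5.8e-04). The cytochrome oxidase genes Cox6c and Cox5b had differences of -1.88 and -1.33, and the complex III gene Uqcr10 of -1.59. Ndufs1, a large complex I subunit, and Uqcrc2, of the complex III core, had differences of 0.20 and 0.12 and did not pass. For KO3 minus KO2 the ribosomal median was 0.16, with 1 gene higher and 2 lower, and the oxidative phosphorylation median was 0.26, with 8 higher and none lower. Tested directly, the wild-type and knockout differences differed for 1 of the 81 ribosomal genes, Rpl37 (difference of differences -2.28 ± 0.36 SE, adjusted p = 0.045). The KO3 libraries also differed from each other. Ribosomal genes made up 8.85% of the FPKM in KO3 replicate 1 and 13.5% in replicate 2. With the 8 adult libraries alone 17 ribosomal and 24 oxidative phosphorylation genes were lower between the wild-type sets, and with any 1 wild-type library left out 7 to 17 and 12 to 27.

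Other large falls stood outside these families. The small nucleolar RNA host gene Snhg6 had 78.9 and 82 FPKM in set 1 and 13.4 and 16.7 FPKM in set 2 (log2 difference -2.35 ± 0.26 SE, adjusted p = 4.9e-04), and the unnamed gene models 2010003O02Rik and 2610019E17Rik had differences of -3.47 and -3.45. The metallothionein genes Mt1 and Mt2, which bind zinc and copper, had 1886 and 1860.4 FPKM in set 1 and 363 and 613 FPKM in set 2 for Mt1 (log2 difference -1.99 ± 0.42 SE, adjusted p = 0.011) and a difference of -1.66 for Mt2. Mid1, an E3 ubiquitin ligase gene on the X chromosome, had 11 and 11.5 FPKM in set 1 and 2.06 and 1.78 FPKM in set 2 (log2 difference -2.07 ± 0.56 SE, adjusted p = 0.029). Lst1, a gene of myeloid cells, had 16 and 11 FPKM in set 1 and 5.67 and 0.79 FPKM in set 2 (log2 difference -2.05 ± 0.48 SE, adjusted p = 0.018). Rnaset2a, Pet117 and Gm5741 also met the naming rule, and copies or overlapping genes make their values uncertain. How transcript length relates to these falls was not analysed here.

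Immediate early genes, which neurons switch on within minutes of activity, were higher in set 2 for 5 of 18, against 6.45% of all genes, with none lower and a median of 0.44. Fosb had 3.43 and 2.67 FPKM in set 1 and 13.4 and 6.69 FPKM in set 2 (log2 difference 1.38 ± 0.32 SE, adjusted p = 0.017). Dusp1, a phosphatase gene that ends kinase signals, had 23.6 and 15.2 FPKM in set 1 and 41.8 and 28.2 FPKM in set 2 (log2 difference 0.83 ± 0.23 SE, adjusted p = 0.033), and Btg2 had 7.13 and 5.46 FPKM in set 1 and 13.4 and 9.63 FPKM in set 2 (log2 difference 0.77 ± 0.18 SE, adjusted p = 0.018). Nr4a3 (1.39) and the growth factor gene Bdnf (0.71) passed as well. The best known members did not. Fos had 22.3 and 15.5 FPKM in set 1 and 51.2 and 24.7 FPKM in set 2 (adjusted p = 0.052), Egr1 had 115 and 66.9 FPKM in set 1 and 154 and 72.7 FPKM in set 2 (adjusted p = 0.57), and Arc had 139.6 and 61.9 FPKM in set 1 and 120.2 and 58.2 FPKM in set 2 (adjusted p = 0.87). In each set 1 library was well above the other for these 3, and the sets overlapped for Egr1 and Arc. Dusp5, outside the list, was among the 15 largest rises of the whole comparison (3.98 and 2.57 FPKM in set 1 and 19.6 and 16.1 FPKM in set 2, log2 difference 2.15 ± 0.31 SE, adjusted p = 0.0019). The count was 0 with the 8 adult libraries alone, 1 without set 1 replicate 1, 0 without set 1 replicate 2 or set 2 replicate 1, and 7 without set 2 replicate 2. In the knockouts Fosb had 10.2 and 4.63 FPKM in KO2 and 8.1 and 5.71 FPKM in KO3.

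Clock genes differed in 6 of 17, all higher in set 2, against 6.45% of all genes, with a median of 0.42. The nuclear receptor gene Nr1d2 had 13.5 and 15.8 FPKM in set 1 and 38.5 and 34 FPKM in set 2 (log2 difference 1.26 ± 0.21 SE, adjusted p = 0.0043). Dbp, a clock output factor, had 16.3 and 18.6 FPKM in set 1 and 38 and 26.8 FPKM in set 2 (log2 difference 0.84 ± 0.23 SE, adjusted p = 0.033), and the repressor gene Per2 had 5.67 and 4.56 FPKM in set 1 and 14.2 and 7.69 FPKM in set 2 (log2 difference 0.91 ± 0.25 SE, adjusted p = 0.0295). Hlf (0.59), Bhlhe40 (0.77) and Bhlhe41 (0.80) passed too. Arntl, the activator that peaks opposite to Per2 and Dbp in most tissues, had 14.2 and 13.1 FPKM in set 1 and 10.3 and 10.8 FPKM in set 2 (adjusted p = 0.082), with both set 2 values below both set 1 values. Nr1d1 had 47.5 and 42.4 FPKM in set 1 and 50.6 and 51.4 FPKM in set 2 (adjusted p = 0.298). Dbp had 35.6 and 40.4 FPKM in KO2 and 35.6 and 28 FPKM in KO3, and Nr1d2 had 29.9 and 28.3 FPKM in KO2 and 36.7 and 22.3 FPKM in KO3, so set 1 held the lowest adult values of both. The count of 6 was 1 with the 8 adult libraries alone and 1 without set 1 replicate 1, set 1 replicate 2 or set 2 replicate 1, and 2 at a pseudocount of 0.1.

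Promoters of 3 of these genes are printed because they hold the letters through which activity and the clock are known to act: the cyclic AMP response element TGACGTCA, bound by CREB, and the E-box CACGTG, bound by the product of Arntl with its partner. Each reads the same on both strands, so 1 search covers both, and neither motif holds the other. The sequences are the 250 bases before the start site from RefSeq (GRCm38.p6), 5′ to 3′ on the gene's strand, with every match of either motif in capitals: Dusp1 (chr17:26508473-26508722, minus strand), Btg2 (chr1:134079156-134079405, minus strand) and Bhlhe41 (chr6:145865421-145865670, minus strand).
Dusp1: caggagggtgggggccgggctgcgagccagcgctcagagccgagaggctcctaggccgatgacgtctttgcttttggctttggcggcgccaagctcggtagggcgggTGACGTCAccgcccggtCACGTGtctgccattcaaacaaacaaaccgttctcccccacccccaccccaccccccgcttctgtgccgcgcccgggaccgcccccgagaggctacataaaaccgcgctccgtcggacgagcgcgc
Btg2: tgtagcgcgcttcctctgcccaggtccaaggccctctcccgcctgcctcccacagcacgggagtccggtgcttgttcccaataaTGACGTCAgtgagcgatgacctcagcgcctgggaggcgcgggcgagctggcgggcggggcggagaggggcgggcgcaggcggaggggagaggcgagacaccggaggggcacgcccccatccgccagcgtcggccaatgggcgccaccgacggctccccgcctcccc
Bhlhe41: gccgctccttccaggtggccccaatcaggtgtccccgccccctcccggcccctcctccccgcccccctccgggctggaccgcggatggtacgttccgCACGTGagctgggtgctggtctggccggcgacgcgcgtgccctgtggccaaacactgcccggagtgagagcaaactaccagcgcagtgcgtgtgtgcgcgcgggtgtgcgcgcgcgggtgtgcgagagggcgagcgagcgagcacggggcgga
The response element begins 143 bases before the start site in Dusp1, which also holds an E-box at 126 bases. It begins 166 bases before the start in Btg2, and the E-box of Bhlhe41 begins 153 bases before. Promoters of 1 chromosome were left out of the search, so that genes there had no entry. The response element was found in promoters of 2 of the 12 tested immediate early genes that had an entry. It was found in 2.58% of the promoters of tested genes and in 1.55% of the 32851 promoters searched. The E-box was found for 4 of 14 clock genes with an entry (Per1, Cry1, Tef and Bhlhe41), of which Bhlhe41 passed. It was found in 8.25% of the promoters of tested genes and in 6.02% of the promoters searched. Neither motif keeps to 1 list. The E-box was also found for 2 of the 12 immediate early genes (Egr2 and Dusp1), and the response element for 1 of the 14 clock genes, Hlf, which passed. A match is a description of the letters and not a site of binding, and these windows cover only the start of each gene.

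**Figure D4:**
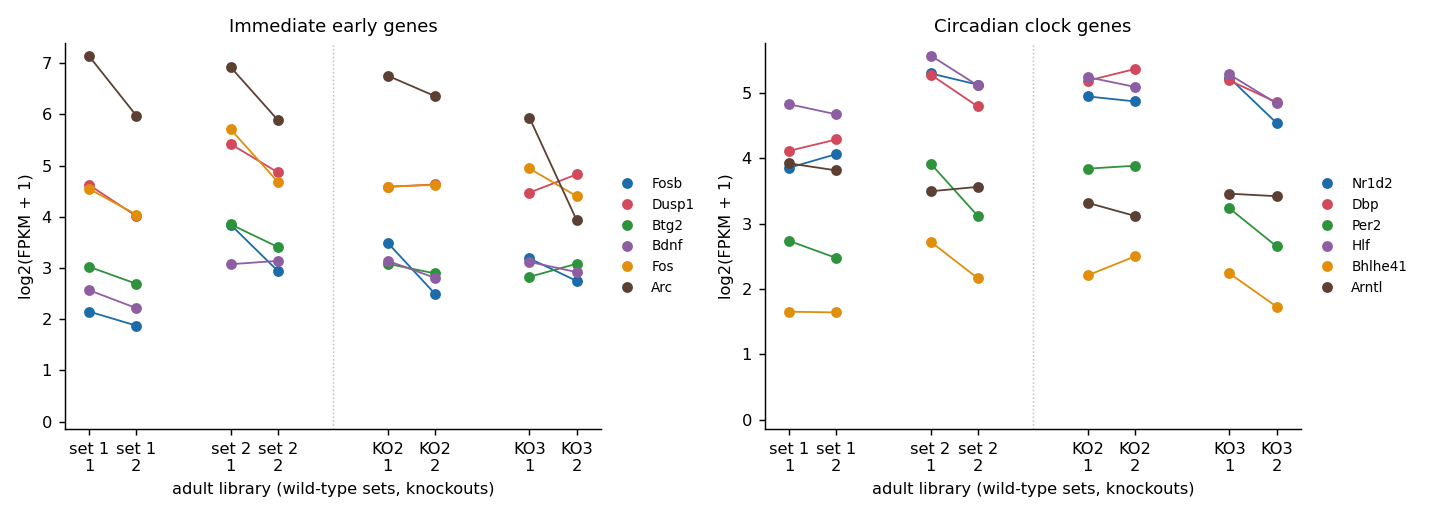
Level of 6 immediate early genes and 6 clock genes as log2(FPKM + 1) in the 8 adult libraries, with each point a library and lines joining the 2 of a group. Fosb, Dusp1, Btg2 and Bdnf lie higher in set 2 than in set 1, Arc does not, and Dbp and Nr1d2 are lowest in set 1 among all 4 groups.

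Hormone and stress lists were mixed. Of 15 glucocorticoid-responsive genes, 4 were higher and 2, Mt1 and Mt2 above, lower in set 2, against 6.45% and 8.79% of all genes. The 4 were 0 without set 1 replicate 1, 2 without set 1 replicate 2 and 1 without set 2 replicate 1, and of the 12 members with 1 FPKM in both sets 3 were higher. Sgk1, a kinase gene, had 17.3 and 16.5 FPKM in set 1 and 43.1 and 23.2 FPKM in set 2 (log2 difference 0.87 ± 0.23 SE, adjusted p = 0.028) and 63.4 and 73.8 FPKM in KO2 and 66.4 and 88.2 FPKM in KO3, so all knockout libraries lay above both sets. Tsc22d3 had 20.7 and 23.3 FPKM in set 1 and 38.6 and 36.1 FPKM in set 2 (log2 difference 0.74 ± 0.15 SE, adjusted p = 0.011), and Errfi1 and the lipid droplet gene Plin4 differed by 0.69 and 0.88. Fkbp5, the most used marker of this response, did not pass (7.03 and 7.2 FPKM in set 1 and 7.25 and 8.21 FPKM in set 2, adjusted p = 0.695). Of 16 heat shock genes 3 were higher, against 6.45% of all genes (Chordc1 0.79, Bag3 0.75 and Dnaja1 0.46) and the mitochondrial chaperone gene Hspe1 was lower (90.5 and 117 FPKM in set 1 and 40.8 and 63.8 FPKM in set 2, adjusted p = 0.013). The stress-inducible Hspa1a had 2.67 and 2.41 FPKM in set 1 and 3.72 and 2.24 FPKM in set 2 (adjusted p = 0.68). Of 13 unfolded protein response genes 3 were higher, against 6.45% of all genes, among them the chaperone gene Hspa5 (80.5 and 92.3 FPKM in set 1 and 122.6 and 126 FPKM in set 2, log2 difference 0.52 ± 0.14 SE, adjusted p = 0.027), with Hsp90b1 and Xbp1 at 0.53 and 0.59. Under quantile scaling 8 heat shock and 7 unfolded protein response genes were higher, and without set 1 replicate 1 none in either list.

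None of 13 hypoxia genes passed by limma, with 3 at an unadjusted p under 0.05. Vegfa had 25 and 21 FPKM in set 1 and 19.2 and 19.4 FPKM in set 2 (adjusted p = 0.26). Of 9 inflammation genes tested, 1 was higher, against 6.45% of all genes: Ptgs2, which neuronal activity also induces (1.6 and 0.748 FPKM in set 1 and 3.38 and 3.86 FPKM in set 2, log2 difference 1.11 ± 0.25 SE, adjusted p = 0.015). Il1b and Tnf were at most 0.194 and 0.0348 FPKM. In interferon-induced genes, set 1 replicate 1 stood apart from the other 3. Isg15 had 15 FPKM in set 1 replicate 1 and 2.91 in replicate 2, with 1.58 and 2.18 in set 2. Irf7 had 8.55 and 1.01 FPKM in set 1 and was listed at 0 in set 2, and Ifit1 had 6.27 and 0.937 FPKM in set 1 and 1.75 and 1.76 FPKM in set 2. Of 12 tested, 1, Ifitm3, passed as lower in set 2, a share near the 8.79% of all genes (90.4 and 29.4 FPKM in set 1 and 21 and 18.6 FPKM in set 2, log2 difference -1.34 ± 0.41 SE, adjusted p = 0.045). That call was lost without set 1 replicate 1, set 2 replicate 1 or set 2 replicate 2, and with the 8 adult libraries alone. Without set 1 replicate 2, 9 passed.

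Among RNAs that reflect library preparation, 2 without a long poly(A) tail varied widely within the sets. Rn45s, the ribosomal RNA precursor, had 325 and 1949 FPKM in set 1 and 882 and 3698 FPKM in set 2 (adjusted p = 0.35), and Rmrp, the RNA of a mitochondrial RNA processing enzyme, had 29.5 and 266 FPKM in set 1 and 34.5 and 60.5 FPKM in set 2 (adjusted p = 0.59). Of 8 nuclear long non-coding RNAs, Kcnq1ot1 was higher (1.54 and 1.38 FPKM in set 1 and 2.91 FPKM in both set 2 libraries, log2 difference 0.67 ± 0.13 SE, adjusted p = 0.0076) and Miat lower (61.9 and 49.5 FPKM in set 1 and 29.2 and 24.4 FPKM in set 2, log2 difference -1.02 ± 0.21 SE, adjusted p = 0.011), and Malat1 had 512 and 530.5 FPKM in set 1 and 783 and 703 FPKM in set 2 (adjusted p = 0.17). Replicative histone genes, whose messages mostly lack poly(A), were lower for 2 of 17, a share near the 8.79% of all genes, among them Hist1h2bc (24.2 and 30.01 FPKM in set 1 and 12.6 and 14.1 FPKM in set 2, log2 difference -0.96 ± 0.21 SE, adjusted p = 0.012). With a library left out 1 or none of the histone genes passed, and none without set 1 replicate 2 or either set 2 library. Of 17 cholesterol synthesis genes Mvd (15.8 and 16.5 FPKM in set 1 and 7.95 and 6.64 FPKM in set 2, log2 difference -1.05 ± 0.13 SE, adjusted p = 9.7e-04) and Pmvk (-0.87) were lower, against 8.79% of all genes. Among the imprinted genes beside the deleted regions, Igf2 had 19.4 and 23.3 FPKM in set 1 and 19.8 and 27.9 FPKM in set 2 and Rasgrf1 89.5 and 100.4 FPKM in set 1 and 149 and 97.2 FPKM in set 2, and neither passed. Meg3 (-0.78, adjusted p = 0.061) and Dlk1 (-0.05, adjusted p = 0.96) did not pass either. H19 had 0.929 and 0.672 FPKM in set 1 and was listed at 0 in set 2.

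The wild-type difference can be set beside KO3 minus KO2, with which it shares no library. In the knockouts 968 genes (7.40%) were higher in KO3 and 1450 (11.1%) lower. Of the 844 genes higher in wild-type set 2, 678 (80.3%) had a positive difference in the knockouts, against 43.3% of all tested genes, and 284 (33.6%) also passed there, with 4 passing in the other direction. Of the 1150 lower genes, 738 (64.2%) had a negative difference, against 56.7% of all tested genes, and 238 (20.7%) passed, with 17 passing as higher. The median over the 844 was 0.65 between the wild-type sets and 0.30 between the knockouts. Over the 1150 it was -0.71 and -0.16. Pearson's r between the 2 differences, across 13081 genes that are not independent, was 0.185. KO3 differs from KO2 by a deletion as well as by the listing of low values as 0, and these cannot be told apart in the knockouts. The 2 differences themselves differed in 22 genes (0.168%), 21 of them lower and 1 higher in the wild-type comparison. KO3 replicate 2 stands apart from the other adult libraries (r of 0.916 to 0.943 with libraries outside KO3), and leaving out either KO3 library moved the counts widely. With 1 adult library left out, the knockout count of 2418 ranged from 355 to 5800 (5800 without KO3 replicate 1), and the count of 22 from 0 to 5637 (5637 without KO3 replicate 1). The small count does not show that the 2 differences are alike.

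**Figure D5:**
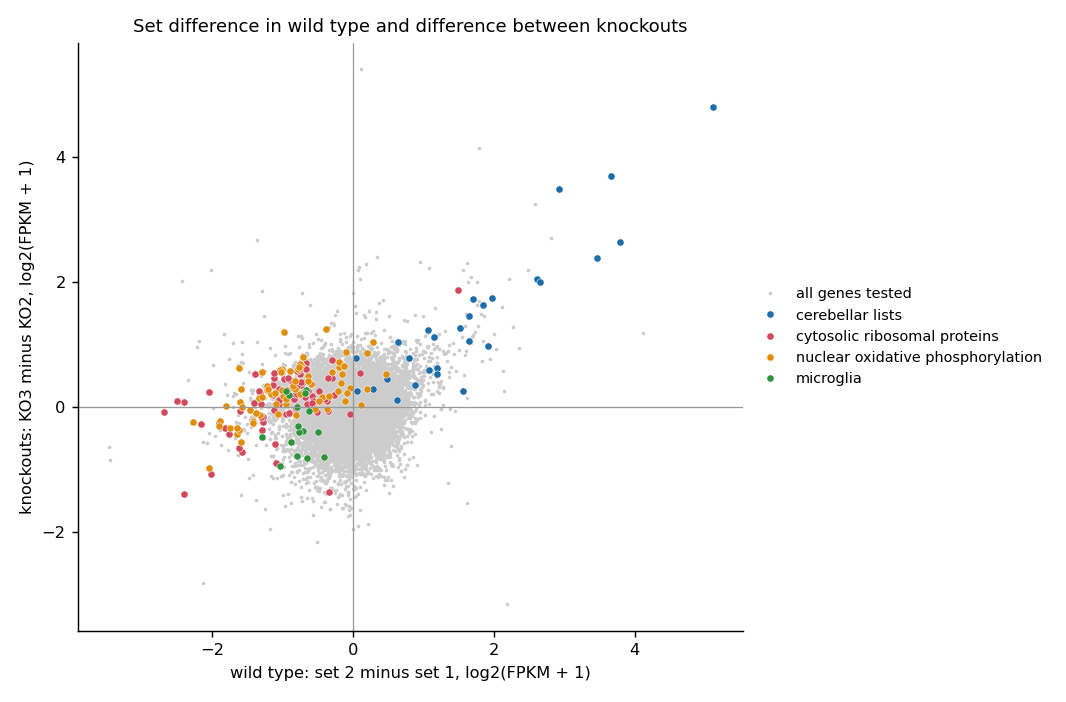
Difference between the wild-type sets (x axis) against difference between KO3 and KO2 (y axis), both in log2(FPKM + 1), for each of 13081 genes. The cerebellar lists lie mostly in the upper right, with medians of 1.65 and 1.23 for granule cells, while the ribosomal protein median is at -0.86 on the x axis and 0.16 on the y axis.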

How the data were processed

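Polyadenylated RNA was sequenced on an Illumina HiSeq machine, per the labels' protocols. CASAVA, TopHat2 2.1.1, Cufflinks 2.2.1 and the mouse genome build mm9 are named by the submitters' processing notes. The values deposited by the authors are FPKM, per the file headers of 10 of the 14 columns. The other 4 (set 2 and KO3) name no unit, and whether all 14 were scaled together is not given in the sources used here. FPKM holds no read totals, so no intervals from depth are given.

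log2(FPKM + 1) was fitted with limma 3.58.1 in R 4.3.3 over all 14 libraries with 1 mean per group, 7 residual degrees of freedom and a trended prior variance, which shares the spread over groups. Tests were 2-sided, Benjamini-Hochberg adjusted over 13081 genes, with a threshold of 0.05. The filter left out 12 genes listed at 0 in set 1 alone, 155 in set 2 alone and 1 in both that otherwise reached 1 FPKM in 2 libraries. The fit was tested on simulated data. Named genes were the 15 largest rises and falls whose libraries did not overlap (at most 3 unnamed models each way), the defining, most significant and most abundant members of each list, Xist, Y-linked and imprinted genes, and the largest differences between the 2 comparisons. Lhx1, Lhx5, Rgs8, Slc1a6, Skor2, Barhl1, Cdh15, Grin2c, Mab21l1, Pax6, Zic2, Zic4, Gng7, Syndig1l, Otp, Nr4a3, Bhlhe40, Per1, Cry1, Egr2, Ndufs1, Uqcrc2, Rpl5, Rpl34 and Rps6 fall outside it and were chosen after their values were seen. Results for some list members are not reported here. The members and all lists were chosen with earlier results of these data known. Alternatives changed the pseudocount, filter, scaling, libraries fitted, block and prior.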

Additional observations from a re-analysis of the deposited data

Results flagged for a closer look

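The difference between the wild-type sets and the difference between KO3 and KO2 were compared directly with limma, and they differed in 22 of 13081 genes (0.168%). Amd1, whose product makes the precursor of spermidine, differed most (-5.28 ± 0.70 SE, adjusted p = 0.024). It had 36.4 and 18.5 FPKM in set 1 and 21.7 and 36.6 FPKM in set 2, and 0.0504 and 0.106 FPKM in KO2 and 63.8 and 30.9 FPKM in KO3, so the KO2 libraries alone were near 0. Amd1 has near-identical copies, which makes the split of fragments uncertain. The gene model 2010003O02Rik (-2.84 ± 0.45 SE, adjusted p = 0.046) had 65.7 and 55.8 FPKM in set 1 and 3.24 and 6.25 FPKM in set 2, and 55.9 and 56.2 FPKM in KO2 and 27.8 and 46.1 FPKM in KO3. Set 2 was the low group there.

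For Snhg6 (-2.78 ± 0.37 SE, adjusted p = 0.024) the values were 78.9 and 82 FPKM in set 1 and 13.4 and 16.7 FPKM in set 2, and 39.9 and 42.4 FPKM in KO2 and 40.01 and 77.9 FPKM in KO3. Rpl37, of the large ribosomal subunit (-2.28 ± 0.36 SE, adjusted p = 0.045), had 434 and 433 FPKM in set 1 and 91.3 and 119.6 FPKM in set 2, and 376 and 463 FPKM in KO2 and 419.9 and 577 FPKM in KO3. Both were lowest in set 2, with the other 3 groups above it.

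Chchd2, a mitochondrial protein gene (-2.55 ± 0.43 SE, adjusted p = 0.0496), had 46 and 66.5 FPKM in set 1 and 23.9 and 45.5 FPKM in set 2, and 46.7 and 41.4 FPKM in KO2 and 116 and 216 FPKM in KO3. Serf1 (-2.40 ± 0.28 SE, adjusted p = 0.019) had 25.9 and 21.9 FPKM in set 1 and 7.53 and 9.96 FPKM in set 2, and 17.6 and 14.3 FPKM in KO2 and 27.8 and 40.5 FPKM in KO3. For the histone gene Hist1h2bc (-1.94 ± 0.29 SE, adjusted p = 0.035) the knockouts had 25.1 and 18.6 FPKM in KO2 and 35.5 and 53.5 FPKM in KO3. These 3 were lower in set 2 than in set 1 on average and higher in KO3 than in KO2. The 1 gene with the opposite sign was the gene model C230091D08Rik (1.34 ± 0.23 SE, adjusted p = 0.0496), with 13.5 and 12.6 FPKM in set 1 and 24.5 and 18.8 FPKM in set 2, and 19.4 and 18.4 FPKM in KO2 and 13.8 and 9.71 FPKM in KO3. The count was 1 without set 1 replicate 1 and 1 without set 2 replicate 1, and 5637 genes passed without KO3 replicate 1.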

How the results depend on the processing

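The 844 higher genes were 1635 after quantile scaling, 258 with the 8 adult libraries alone and 1650 without E19.5 KO2 replicate 1 and adult KO3 replicate 2, and 175 to 333 with 1 wild-type library left out. The 1150 lower genes were 291 with the 8 adult libraries and 2035 without those 2, and 146 to 601 with 1 left out. The 2418 knockout calls were 481 and 643 under the same changes and 355 to 5800 with 1 knockout library left out. The 22 genes whose differences differed were 6 at a pseudocount of 0.1, 183 at 10, 11 with no minimum, 236 at a mean of 5 FPKM or more, 12 with zeros kept, 306 after quantile scaling, 4 after median-of-ratios scaling, 0 with the 8 adult libraries, 7 without those 2 libraries and 0 to 5637 with 1 left out. The 190 list members called were 87 with the 8 adult libraries and 50 to 95 with 1 wild-type library left out. They were 270 without those 2. Syp, with a difference of -0.15, passed as higher (0.58) after quantile scaling, and no other named gene passed in the opposite direction under the alternatives run. Fits without a knockout library and with 0.01 FPKM as the floor were added after seeing the data. The causes were not tested. With 1 library left out its partner is assumed to vary like the other groups.

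Replicate numbers are shared by the groups. Over all tested genes, same-numbered libraries did not deviate together (r across genes of 0.0134 for the wild-type sets and 0.092 for the knockouts, 2 pairs each). Single lists can differ from this. The immediate early list had a higher mean log2(FPKM + 1) in replicate 1 of each adult group. The means of replicates 1 and 2 were 4.17 and 3.68 in set 1, 4.85 and 4.10 in set 2, 4.31 and 4.10 in KO2, and 4.11 and 3.86 in KO3. What the numbers stand for was not tested. With the replicate number as a block, 782 genes were higher and 1045 lower between the sets, 2384 passed in the knockouts, 32 differed between the 2 comparisons and 175 list members passed.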
